A study of Sus scrofa with 6 samples.

Results

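The muscle ubiquitin ligases linked to atrophy, the FoxO transcription factors that control them and a pair of GADD45 stress genes were examined in back muscle (longissimus dorsi) of 6-month-old pigs. The 10 genes were listed by symbol (*FBXO32*, *TRIM63*, *TRIM54*, *TRIM55*, *FBXO30*, *FOXO1*, *FOXO3*, *FOXO4*, *GADD45A* and *GADD45G*), and each was found once among the 30476 Ensembl pig genes counted. Muscle of 3 UCP1 KI pigs, which carry an adipocyte-specific knock-in of the uncoupling protein UCP1, was compared with muscle of 3 WT pigs, with 1 RNA-seq library per pig. The labels name no treatment for either group, and the study's methods describe no cold exposure. Some of its figure legends use the words of cold treatment for comparisons of this kind. Its discussion leaves cold acclimation of UCP1 KI pigs to further work. The sources used here name neither the promoter that restricts the transgene nor the sex or litter of the pigs, and the gene table has no entry for *UCP1*, so the genotype was not checked by its counts. All values came from whole muscle, where a change in cell number and a change in RNA per cell cannot be told apart.

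In muscle, proteins of the sarcomere are broken down mainly by the proteasome after E3 ligases have tagged them with ubiquitin. MAFbx, encoded by *FBXO32*, and MuRF1, encoded by *TRIM63*, are the classical atrophy ligases, and their mRNAs rise in fasting, denervation and glucocorticoid treatment. FoxO factors switch on both genes, while insulin and IGF-1, acting through PI3-kinase and AKT, keep FoxO proteins phosphorylated and out of the nucleus. A count of FoxO mRNA therefore does not report FoxO activity.

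Library totals lay between 30220951 and 35066624 counts. WT replicate 2 stood apart in composition, with 56.5% of its counts on the 20 genes with the most counts against 39.0% to 44.8% in the other pigs, and it had the lowest scaling factor, 0.781. Levels are given as CPM, counts divided by the library's total over the genes tested and by its scaling factor. These are not per transcript length, so levels are compared between pigs, and the gene of highest CPM in a list, a rule used to choose which gene to name, need not have the most transcripts. All 10 genes passed the filter on low counts, and their lowest single count was 170, for *TRIM55*. A gene was called when edgeR's quasi-likelihood test over 13402 genes gave an unadjusted p under 0.05 and the log2 fold change of UCP1 KI against WT was beyond 0.5 in either direction.

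Of the 10 genes, 5 were called higher in UCP1 KI pigs and 0 lower, where 3.84% of all genes tested were called higher, 4.34% lower and 8.19% in either direction. The 5 were *FOXO1*, *FOXO3*, *FBXO32*, *TRIM63* and *GADD45G*. The 10 genes were chosen with earlier results of these data known, so their share of calls is not independent evidence. The median log2 fold change of the 10 genes was 0.90, and that of all genes tested was -0.02. No call held after Benjamini-Hochberg adjustment over all genes, where edgeR gave 0 genes with an adjusted p under 0.05, against 1100 genes with an unadjusted p under 0.05. DESeq2 on the same genes gave 127 genes at this adjusted limit, 0 of them among the 10, with the smallest adjusted p for *FOXO1* at 0.0919. Without UCP1 KI replicate 3, the median of the 10 genes was 0.36, and 3 genes were called higher (*FOXO1*, *FOXO3* and *GADD45G*, at a background of 3.9%) and 1 lower (*TRIM55*, at a background of 4.43%). *FOXO1* alone was called without WT replicate 1, where 4.15% of all genes were called higher, and without WT replicate 2, where 2.4% were.

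**Figure D1:**
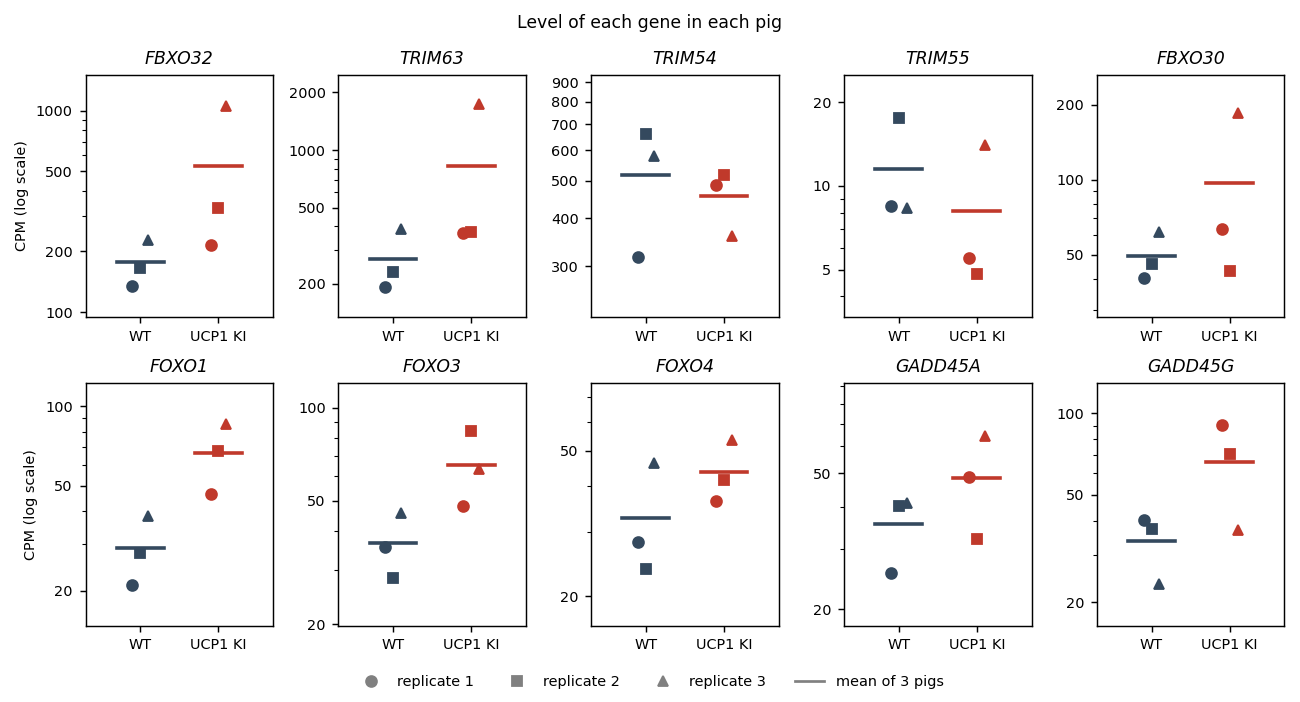
Level of each of the 10 genes in CPM (log scale with its own range in each panel) in the 3 WT and the 3 UCP1 KI pigs, with 1 point per pig, shapes for replicate numbers, which do not pair the pigs, and a line for the mean of the group. The groups are separate for *FOXO1* and *FOXO3*, and UCP1 KI replicate 3 lies far above the other pigs for *FBXO32*, *TRIM63* and *FBXO30*.

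*FOXO1* (ENSSSCG00000009370, Sscrofa11.1 chromosome 11, 15317222 to 15410059) encodes a FoxO factor that activates both classical ligase genes. It was measured at 46.3, 68.0 and 85.6 CPM in UCP1 KI replicates 1 to 3 and at 21.1, 27.8 and 38.4 CPM in WT replicates 1 to 3. Every UCP1 KI pig was thus above every WT pig, a separation in this direction that 7.59% of all genes tested also showed. Group means were 66.6 ± 19.6 CPM for UCP1 KI and 29.1 ± 8.73 CPM for WT (SD, n = 3 each). This 2.29-fold difference, 1.20 on the log2 scale with a standard error of 0.33, had an edgeR p of 0.00683 and a Benjamini-Hochberg adjusted p of 0.583. *FOXO1* was the member that stayed past both limits in all 6 fits that left out a pig, with log2 fold changes from 0.98 to 1.45.

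*FOXO3* (ENSSSCG00000004387, chromosome 1, 74626673 to 74760323) encodes the FoxO factor best known for driving *FBXO32* and autophagy genes in muscle. Its levels were 48.3, 84.0 and 63.3 CPM in UCP1 KI pigs and 35.6, 28.2 and 45.8 CPM in WT pigs. The groups did not overlap here either, although UCP1 KI replicate 1 and WT replicate 3 were close. Means of 65.2 ± 17.9 and 36.5 ± 8.82 CPM (SD, n = 3 each) gave a log2 fold change of 0.84 with a standard error of 0.30 (edgeR, unadjusted p = 0.0233, adjusted p = 0.583). The call of *FOXO3* was lost when WT replicate 1 (log2 fold change 0.81), WT replicate 2 (0.68) or UCP1 KI replicate 2 (0.60) was left out. For both *FOXO1* and *FOXO3* a two-sided exact permutation test on log2(CPM + 1) gave p = 0.1, the smallest p that 3 pigs against 3 can give.

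*FOXO4* (ENSSSCG00000012399, chromosome X, 57132549 to 57140377), the remaining FoxO factor of the list, was at 36.3, 41.7 and 53.5 CPM in UCP1 KI pigs and 28.1, 23.7 and 46.2 CPM in WT pigs. The groups overlapped, since WT replicate 3 exceeded UCP1 KI replicates 1 and 2. At 0.42 (standard error 0.31), the log2 fold change did not pass the limits (edgeR, unadjusted p = 0.212), except without WT replicate 3, where it was 0.76. It was 0.24 without WT replicate 2 and 0.26 without UCP1 KI replicate 3. The span of *FOXO4* overlaps 1 other RefSeq gene, *CXHXorf65*, and since strand-aware counting is not stated, reads of the overlap cannot be assigned to either gene with certainty.

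Within a pig, the ratio of 2 genes does not depend on how the libraries were scaled, and 5 such ratios were compared, with 0.5 added to each count. The log2 ratio of *FOXO1* to *FOXO3* counts averaged 0.02 ± 0.38 for UCP1 KI and -0.34 ± 0.37 for WT (SD, n = 3 each). The ratios of the pigs overlapped (two-sided exact permutation test, p = 0.5, adjusted over the 5 ratios 0.625).

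*FBXO32* (ENSSSCG00000005981, chromosome 4, 15895875 to 15925929), for the F-box protein MAFbx, was at 215, 329.6 and 1058 CPM in UCP1 KI replicates 1 to 3 and at 135, 166 and 228 CPM in WT replicates 1 to 3. UCP1 KI replicate 3 was the outlying pig, and UCP1 KI replicate 1 lay below WT replicate 3. Means of 534 ± 457 and 177 ± 47.4 CPM (SD, n = 3 each) differed 3.02-fold, or by 1.60 on the log2 scale with a standard error of 0.59 (edgeR, unadjusted p = 0.0280, adjusted p = 0.583). Without UCP1 KI replicate 3 it was 0.62 (standard error 0.34, edgeR unadjusted p = 0.111), and the call was also lost without WT replicate 1 (1.42) or WT replicate 2 (1.55).

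*TRIM63* (ENSSSCG00000027684, chromosome 6, 83493200 to 83507471), for the RING finger ligase MuRF1, followed the same pattern, with 369, 371 and 1734 CPM in UCP1 KI pigs and 192, 232 and 386 CPM in WT pigs. WT replicate 3 exceeded the first 2 UCP1 KI pigs, so the groups overlapped. The 3.06-fold difference, 1.61 on the log2 scale with a standard error of 0.66, had an edgeR p of 0.0416 before and 0.603 after Benjamini-Hochberg adjustment. It was 0.46 (standard error 0.36, edgeR unadjusted p = 0.245) without UCP1 KI replicate 3, 1.40 without WT replicate 1 and 1.51 without WT replicate 2, and in these 3 fits *TRIM63* was not called.

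The classical ligases thus differed in level between the pigs while their proportion stayed narrow. The log2 ratio of *TRIM63* to *FBXO32* counts lay between 0.17 and 0.78 in the 6 pigs, with means of 0.55 ± 0.33 for UCP1 KI and 0.58 ± 0.15 for WT (SD, n = 3 each). In UCP1 KI replicate 3 it was 0.71, within the range of the other pigs. The difference between the groups, -0.02, was smaller than the spread between pigs (two-sided exact permutation test, p = 0.9).

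*FBXO30* (ENSSSCG00000004121, chromosome 1, 19756232 to 19777621) encodes MUSA1, an F-box ligase that BMP signalling holds down in muscle. Its levels were 63.2, 43.0 and 185 CPM in UCP1 KI pigs and 40.2, 46.0 and 61.4 CPM in WT pigs. UCP1 KI replicate 3 was again the highest pig, and UCP1 KI replicate 2 was below 2 of the WT pigs. At 0.98 (standard error 0.53), the log2 fold change did not pass the limits (edgeR, unadjusted p = 0.101), and it was 0.12 without UCP1 KI replicate 3. *FBXO30* was called with scaling by library size only (1.28) and without UCP1 KI replicate 2 (1.31).

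The position of UCP1 KI replicate 3 was quantified against the mean of the other UCP1 KI pigs. Its level was 4.69 times theirs for *TRIM63*, 3.89 times for *FBXO32*, 3.48 times for *FBXO30*, 2.71 times for *TRIM55* and 0.715 times for *TRIM54*. Of 11407 genes compared, 25, 46, 65, 144 and 8831 had a ratio at least as high. *FOXO1* was at 1.50 times and *FOXO3* at 0.956 times the other UCP1 KI pigs, which 1562 and 6546 of the genes reached. The ratio of this pig was thus higher for 4 of the 5 ligases than for these FoxO mRNAs, and lower for *TRIM54*. UCP1 KI replicate 3 was the highest of the 6 pigs for 6 of the 10 genes, and WT replicate 1 the lowest for 6.

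*TRIM54* (ENSSSCG00000039557, chromosome 3, 111836038 to 111852468) and *TRIM55* (ENSSSCG00000006216, chromosome 4, 68487249 to 68530927) encode MuRF3 and MuRF2, relatives of MuRF1 that bind microtubules and the sarcomere. *TRIM54* was at 488, 517 and 359 CPM in UCP1 KI pigs and at 317, 659 and 578 CPM in WT pigs. Neither group was consistently higher, and UCP1 KI replicate 3 was here the lowest of its group. The groups differed by -0.19 on the log2 scale (standard error 0.34, edgeR unadjusted p = 0.601), a value that was 0.11 with library size only and 0.02 without WT replicate 2.

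*TRIM55* was at 5.50, 4.82 and 14.0 CPM in UCP1 KI pigs and at 8.49, 17.6 and 8.34 CPM in WT pigs. UCP1 KI replicates 1 and 2 were below all WT pigs, whereas UCP1 KI replicate 3 exceeded WT replicates 1 and 3. The difference of -0.50 on the log2 scale (standard error 0.50) was not called (edgeR, unadjusted p = 0.345). Without UCP1 KI replicate 3 it was -1.15 (standard error 0.43, edgeR unadjusted p = 0.0318), and without WT replicate 2 it was -0.05 (edgeR, unadjusted p = 0.918).

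Relative to *TRIM63*, both relatives separated the groups, with all UCP1 KI pigs below all WT pigs, which either way 15.3% of single genes did. For UCP1 KI replicates 1 to 3 the log2 ratio of *TRIM54* to *TRIM63* counts was 0.40, 0.48 and -2.27, and for WT replicates 1 to 3 it was 0.72, 1.51 and 0.59. That of *TRIM55* to *TRIM63* was -6.06, -6.26 and -6.95 against -4.50, -3.72 and -5.53. The group differences were -1.40 and -1.85, each with p = 0.1 in the two-sided exact permutation test and 0.25 after adjustment over the 5 ratios. The *TRIM54* difference was -0.50 without UCP1 KI replicate 3, and the *TRIM55* difference stayed between -2.32 and -1.41 with each pig left out.

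**Figure D2:**
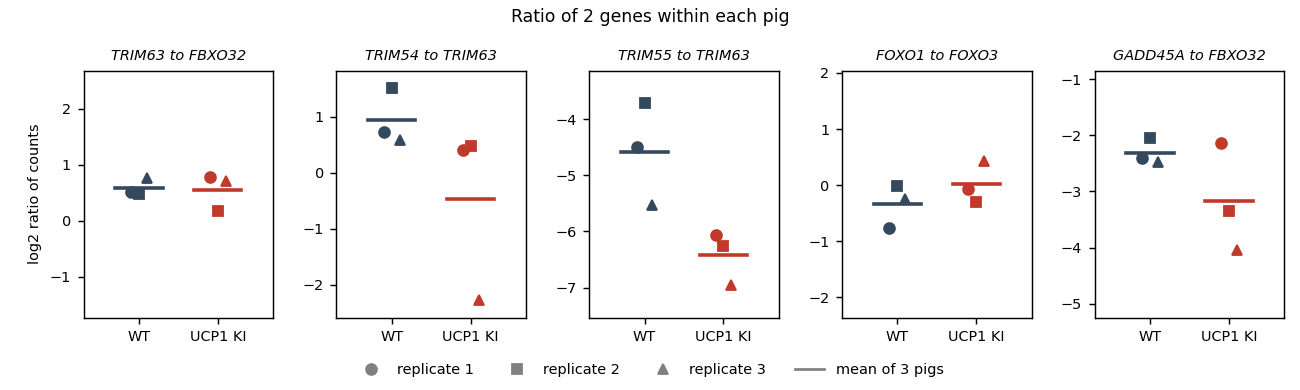
log2 ratio of the counts of 2 genes within each pig, with 1 point per pig and a line for the mean of each group of 3, all panels spanning the same number of log2 units. The ratio of *TRIM63* to *FBXO32* lies between 0.17 and 0.78 in all pigs, and the ratios of *TRIM54* and *TRIM55* to *TRIM63* put all UCP1 KI pigs below all WT pigs.

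The GADD45 genes encode small stress-induced proteins, and *GADD45A* is known to rise in denervated and fasted muscle. *GADD45G* (ENSSSCG00000035249, chromosome 14, 1166000 to 1167538) was at 90.3, 70.7 and 36.9 CPM in UCP1 KI pigs and 40.4, 37.4 and 23.4 CPM in WT pigs. Here UCP1 KI replicate 3 was the lowest of its group, at 0.458 times the other UCP1 KI pigs and below WT replicates 1 and 2. The log2 fold change was 0.97 with a standard error of 0.38 (edgeR, unadjusted p = 0.0341, adjusted p = 0.592). Without UCP1 KI replicate 3 it was 1.25 (standard error 0.33, edgeR unadjusted p = 0.00709), and the call was lost without each other pig in turn, at 0.68 without UCP1 KI replicate 1, 0.91 without UCP1 KI replicate 2, 1.12 without WT replicate 1, 1.05 without WT replicate 2 and 0.76 without WT replicate 3.

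*GADD45A* (ENSSSCG00000037066, chromosome 6, 144940702 to 144944089) was at 49.0, 32.2 and 64.3 CPM in UCP1 KI pigs and 25.6, 40.1 and 41.1 CPM in WT pigs. The groups overlapped, with UCP1 KI replicate 2 below 2 of the WT pigs. The log2 fold change, 0.45 with a standard error of 0.32, was not called (edgeR, unadjusted p = 0.206), nor was it under any alternative. It was 0.20 without UCP1 KI replicate 3. The log2 ratio of *GADD45A* to *FBXO32* counts averaged -3.18 ± 0.97 for UCP1 KI and -2.31 ± 0.22 for WT (SD, n = 3 each, two-sided exact permutation test, p = 0.3).

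**Figure D3:**
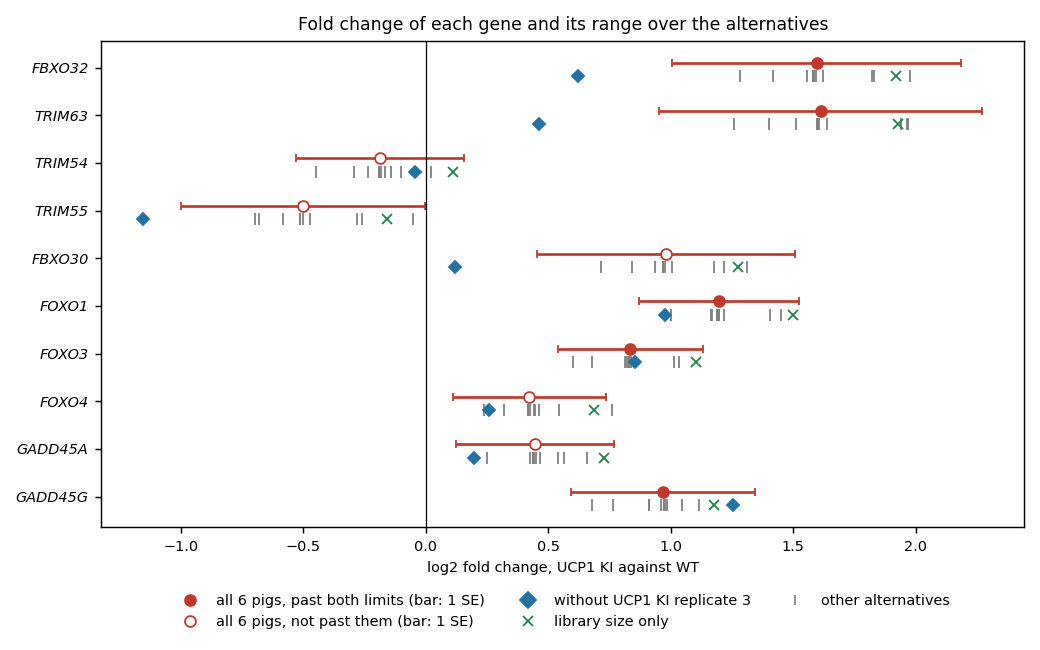
log2 fold change of UCP1 KI against WT for the 10 genes from edgeR, with circles for the fit of all 6 pigs (filled where both limits were passed), bars of 1 standard error, and marks below for each alternative. Without UCP1 KI replicate 3 (diamonds), *FBXO32* moves from 1.60 to 0.62, *TRIM63* from 1.61 to 0.46 and *FBXO30* from 0.98 to 0.12, while *FOXO1* and *FOXO3* are at 0.98 and 0.85.

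The pathway around these genes was described from lists chosen by known function, with earlier results of these data known, so the counts of calls are descriptive. Of 21 other FoxO target genes tested, 4 were called higher and 0 lower, where 3.84% of all genes tested were called higher and 4.34% lower. Their median log2 fold change was 0.24. *CDKN1A*, for the cell cycle inhibitor p21, was at 162, 294 and 1026 CPM in UCP1 KI pigs and 59.8, 84.6 and 149 CPM in WT pigs. The groups did not overlap, and UCP1 KI replicate 3 was at 4.50 times the other UCP1 KI pigs, between the ratios of *FBXO32* and *TRIM63*. A log2 fold change of 2.33 (standard error 0.71, edgeR unadjusted p = 0.0115) became 1.22 without that pig, and *CDKN1A* passed the limits in all 6 fits that left out a pig.

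*GABARAPL1*, for an autophagosome protein of the ATG8 family, was at 66.0, 98.7 and 106 CPM in UCP1 KI pigs and at 49.9, 50.1 and 48.7 CPM in WT pigs, which differ by 0.86 on the log2 scale (standard error 0.25, edgeR unadjusted p = 0.00910). *SOD2*, for the mitochondrial superoxide dismutase, had a log2 fold change of 1.03 (standard error 0.31), and *PINK1*, for the kinase that marks damaged mitochondria, one of 0.88 (standard error 0.33). Like *CDKN1A*, all 3 genes were above the highest WT pig in each UCP1 KI pig, as 7.59% of all genes tested were. *PINK1* was not called when WT replicate 2 (0.63), UCP1 KI replicate 3 (0.76) or UCP1 KI replicate 2 (0.87) was left out, and the other two passed in all 6 fits. The gene named for the highest CPM of the list, *PDK4*, for a kinase that shuts off pyruvate oxidation, averaged 963 ± 73.5 CPM in UCP1 KI and 1112 ± 289 CPM in WT pigs (SD, n = 3 each) and was not called.

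Among 15 regulators of FoxO factors tested, 1 was called higher and 1 lower, where 8.19% of all genes tested were called in either direction. The median was -0.19. *PIK3CA*, for a catalytic subunit of PI3-kinase, was at 17.8, 30.6 and 17.6 CPM in UCP1 KI pigs and 10.9, 6.43 and 8.51 CPM in WT pigs. This separation gave a log2 fold change of 1.35 (standard error 0.33, edgeR unadjusted p = 0.00370), called with each pig left out. *SGK1*, for a kinase that phosphorylates FoxO factors as AKT does, was at 35.3, 25.7 and 19.8 CPM against 98.0, 51.0 and 27.6 CPM in WT pigs, with overlap. The log2 fold change was -1.13 (standard error 0.46, edgeR unadjusted p = 0.0422). It was lost in 4 of the 6 fits that left out a pig and was -0.55 without WT replicate 1, and it was also lost with library size only. *AKT1* and *YWHAG* were on the list and had no identifier under their symbols.

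Of 16 other ubiquitin ligases of muscle, 0 were called by edgeR, with 0 at an unadjusted p under 0.05, and DESeq2 on the same genes called 1. Their median log2 fold change was 0.04. The one with the highest CPM, *ASB2*, for a substrate receptor of cullin ligases, was at 412, 360.2 and 501 CPM in UCP1 KI pigs and 71.9, 292 and 226 CPM in WT pigs, without overlap. At 1.11 on the log2 scale (standard error 0.48), it missed the limit on p (edgeR, unadjusted p = 0.0527). *ASB2* was the ligase that DESeq2 called, and it also passed both limits in edgeR with library size only (1.45), the replicate block (1.31) or all genes with any count (1.13), and without WT replicate 1 (0.70) or WT replicate 2 (1.51).

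The remaining lists gave few calls, where 8.19% of all genes tested were called in either direction. Of 10 GADD45 relatives and partners tested, the single call was *CDKN1A*, which this list shares with the FoxO targets. Of 8 denervation markers tested, 1 was called, *RUNX1*, a transcription factor induced in denervated muscle, with 21.9, 15.3 and 53.7 CPM against 7.42, 10.4 and 17.1 CPM. *RUNX1* had a log2 fold change of 1.38 (standard error 0.52, edgeR unadjusted p = 0.0304), which was 0.68 without UCP1 KI replicate 3 and then no longer called, and it was also lost without WT replicate 1 or WT replicate 2. Of 15 atrophy signals and 13 sarcomere partners and substrates tested, 0 were called by edgeR, 0 had an unadjusted p under 0.05, and DESeq2 on the same genes called 1 and 0. The sarcomere list lacked *TTN*, *MYH1*, *MYH2*, *MYH4*, *MYH7* and *MYLPF*, and the atrophy signals lacked *ATF4*. These genes were not matched to a single gene by symbol and so were not tested. The atrophy signal that DESeq2 called was *MSTN*, for the muscle growth inhibitor myostatin, at 2.13, 0.982 and 4.08 CPM in UCP1 KI pigs and 2.78, 5.92 and 10.7 CPM in WT pigs, with overlap. Its edgeR value was -1.43 on the log2 scale (standard error 0.63, unadjusted p = 0.0556), and edgeR called it without UCP1 KI replicate 3 (-2.04), without WT replicate 1 (-1.79), with the replicate block (-1.44) and on all genes with any count (-1.40). *MSTN* was at -1.06 without UCP1 KI replicate 2 and at -0.85 without WT replicate 3, and was not called in these fits. The genes with the highest CPM in the lists on FoxO regulators, atrophy signals, denervation and the sarcomere were *USP7*, *STAT3*, *MYH8* and *TNNT3*, with log2 fold changes of 0.16, 0.40, -1.36 and -0.79, and edgeR called none of them. DESeq2 on either set of genes called *MYH8*, as did edgeR on all genes with any count (-1.33) and without WT replicate 1 (-1.81). The value of *MYH8* was -0.41 without WT replicate 2 and -0.94 with the replicate block, and neither was called.

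**Figure D4:**
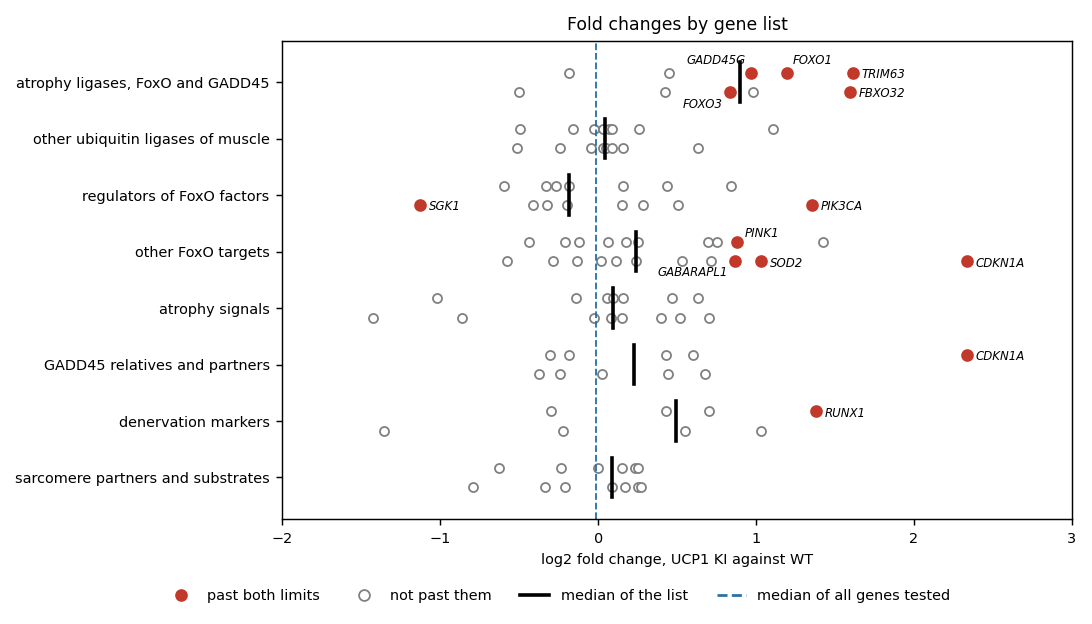
log2 fold change of UCP1 KI against WT (edgeR) for each tested gene of the 10 genes and of 7 lists of the pathway, with 1 circle per gene, filled and named where both limits were passed, a bar for the median of the list and a dashed line for the median of all genes tested, -0.02. The 10 genes have a median of 0.90 with 5 calls, and the 21 other FoxO targets a median of 0.24 with 4.

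Genes with the pattern most like that of a member were found by the root mean square difference of log2(CPM + 1), each gene relative to its own mean over the 6 pigs, among 10143 other genes with a symbol. For *FBXO32* the nearest gene was *TRIM63*, at a difference of 0.21, followed by *SLC15A4* and *VIPAS39* at 0.25 each, *TMEM117* at 0.29 and *NEDD4L* at 0.30. For *TRIM63* the nearest was *TMEM117* at 0.20 and the next *FBXO32*. The classical ligases thus ranked first and second for each other. Outside UCP1 KI replicate 3, *TMEM117* was at no more than 0.938 CPM and *VIPAS39* at no more than 2.33 CPM. At such levels the added 1 CPM narrows differences, and their log2 fold changes were 2.83 and 2.67. *NEDD4L*, for a HECT-type ubiquitin ligase, was at 14.0, 19.8 and 48.2 CPM in UCP1 KI pigs and 10.2, 10.1 and 9.84 CPM in WT pigs.

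For *FOXO1* the 5 nearest genes were *SMTNL2*, *AIFM2*, *PSMD1*, *ZPR1* and *PSMD2*, at differences from 0.12 to 0.14, and *PSMD1* and *PSMD2* encode subunits of the proteasome. For *FOXO3* they were *GABARAP*, *SPTB*, *GPD1L*, *THAP4* and *CHP1*, from 0.10 to 0.13, with *GABARAP* at no more than 2.64 CPM in any pig. For *GADD45G* the nearest was *SRXN1*, for the antioxidant enzyme sulfiredoxin, at 0.10, and the others were *KLRK1*, *TNFRSF1B*, *C15orf48* and *SYNJ2*. No gene was near to more than one of *FBXO32*, *FOXO1*, *FOXO3* and *GADD45G*. These likenesses describe 6 pigs and carry no test.

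**Figure D5:**
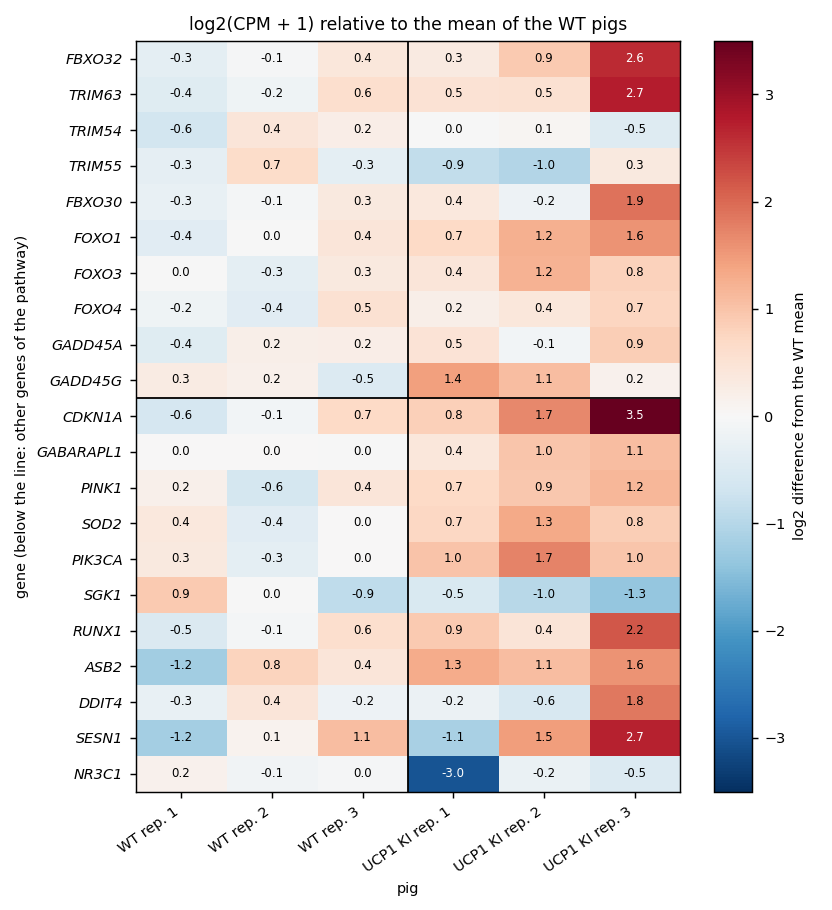
log2(CPM + 1) of each gene in each pig relative to the mean of the WT pigs on that scale, from blue (lower) through white to red (higher), with the 10 genes above the line and 11 other genes of the pathway below it, of which *ASB2*, *DDIT4*, *SESN1* and *NR3C1* did not pass the limits. UCP1 KI replicate 3 reaches 2.6 for *FBXO32*, 2.7 for *TRIM63* and 3.5 for *CDKN1A*, and the FoxO rows are above 0 in all 3 UCP1 KI pigs.

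Markers of other cells were read beside these differences. Of 5 fibroblast markers, edgeR called 3 lower in UCP1 KI pigs (*COL1A1*, *COL3A1* and *LUM*), where 4.34% of all genes tested were called lower. The other markers of the list, *DCN* (-0.39) and *PDGFRA* (-0.08), were not called. The call of *COL3A1* was lost without WT replicate 2 (-1.31), and that of *LUM*, at -0.57, in every fit that left out a pig except the one without WT replicate 3, and also with library size only (-0.31), the replicate block, and both tools on all genes with any count. The summed level of the list was 199 to 367 CPM in UCP1 KI pigs and 578 to 927 CPM in WT pigs. Of 7 immediate early genes, 2 were called lower (*FOSB* and *IER2*), with sums of 518 to 1011 CPM against 1018 to 1174 CPM. Both sums separated the groups, as *FOXO1* and *FOXO3* did, and their part in the results was not tested.

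Of 6 leukocyte markers, 1 was called higher (*CD3E*), with sums of 22.5 to 65.4 CPM against 21.2 to 41.6 CPM. *CD3E*, at 1.84, was not called without UCP1 KI replicate 2 (0.95), with any 1 WT pig left out (1.58 to 2.03) or with the replicate block (1.47). For endothelial cells it was 1 of 4 (*TEK*), with 273 to 508 CPM against 251 to 457 CPM, and for adipocytes 1 of 5 tested (*LIPE*, which muscle fibres also express), with 66.2 to 132 CPM against 69.0 to 297 CPM. The other 4 adipocyte markers tested had log2 fold changes below 0, and the median of the list was -1.13. WT replicate 2 was the highest pig for each of these 4, and *FABP4* went from -1.22 to -0.078 without it. EdgeR called neither of 2 red blood cell genes tested, where the sums, 11.4 to 75.8 CPM against 104 to 179.5 CPM, did not overlap. *LEP* was at 0 in 3 pigs and *SLC4A1* in 5. The skeletal muscle markers were strongly expressed in every pig, as the labelled tissue requires, with sums of 56997 to 91880 CPM in UCP1 KI pigs and 72171 to 101232 CPM in WT pigs, and 0 of 5 were called. The markers with the highest CPM of their lists were *ACTA1* for muscle, *FABP4* for adipocytes, *CSF1R* for leukocytes, *PECAM1* for endothelium, *COL3A1* for fibroblasts, *HBB* for red blood cells and *ATF3* among the immediate early genes, and of these edgeR called *COL3A1* alone, at -1.57 on the log2 scale. DESeq2 on either set of genes also called *HBB* (edgeR -1.29) and *ATF3* (edgeR -0.96), and edgeR called *HBB* with the replicate block (-1.63) and without UCP1 KI replicate 2 (-0.81), and *FABP4* with the block (-0.92) and without WT replicate 1 (-1.65).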

How the data were processed

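RNA of longissimus dorsi from 3 UCP1 KI and 3 WT pigs was sequenced by the authors as paired-end mRNA libraries, trimmed with Trimmomatic 0.36, mapped with HISAT2 2.0 to Sscrofa11.1 (per the submitters' processing notes) with expression values from StringTie 1.3.3b. The authors deposited raw counts per Ensembl gene, with a column for each pig, all of them used (0 others present). The counting program, strand setting and annotation release are not given in the sources used here.

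The fit used edgeR 4.0.16 under R 4.3.3 (filterByExpr, TMM factors, quasi-likelihood F test, condition as the only term) over 13402 genes, and calls used the limits of the study on p and fold change. CPM used the totals of the genes tested times the TMM factors, and exact permutation tests enumerated all 20 assignments. The standard error is the log2 fold change divided by the root of F. The procedure was tested on simulated data. Nothing states that the pigs were separate litters, and the p-values set a difference between the groups against the variation between these pigs.

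Symbols came from a table of Ensembl names, and positions from RefSeq on Sscrofa11.1, matched by symbol (10 of 10). Protein and promoter sequences were not used here, and some listed genes and 1 marker list are not reported here. The 10 genes and the lists were chosen with earlier results of these data known. Named were the 10 genes, listed genes past the limits and the gene of highest CPM in a list, and the 5 genes nearest in pattern, while *DDIT4*, *SESN1*, *NR3C1*, *MSTN*, *LEP* and *SLC4A1* were chosen after their values were seen. Alternatives were DESeq2 1.42.0, other factors and filters, a replicate block and each pig left out.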

Additional observations from a re-analysis of the deposited data

How the results depend on the processing

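*FOXO1* passed both limits in all 13 alternative fits. *FBXO32*, *TRIM63*, *FOXO3* and *GADD45G* did so in those that kept the 6 pigs. With an adjusted p under 0.05, edgeR called 0 of the 10 and 0 of all genes. Scaling by library size only moved the median over all genes from -0.02 to 0.24 (log2), made 82.7% of all calls higher in place of 46.9%, called 6 of the 10 genes higher, at 6.93% of all genes, and separated 4 of them between the groups in place of 2, where 14.6% of all genes separated in place of 15.3%. It also gave 1 call among the other ligases, 7 among the other FoxO targets and 2 among the GADD45 relatives, and reversed *TRIM54* to 0.11 and *PDK4* to 0.059. Testing all genes with any count, and DESeq2 on either set of genes, gave 1 call each among the other ligases and the atrophy signals and 2 among the denervation markers, and DESeq2 on the same genes gave 2 among the GADD45 relatives. The cause of these shifts was not tested.

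With the replicate number as a block, 5 of the 10 genes were called, the same genes as without it, and of all genes 544 were called higher and 570 lower in place of 515 and 582. The block gave 1 call among the other ligases, 4 among the regulators of FoxO, 1 among the atrophy signals and 2 among the GADD45 relatives. Deviations of same-numbered pigs from their group means were correlated at 0.0038, 0.094 and 0.28 over genes, so the numbers were not taken to pair the pigs. Of the UCP1 KI pigs, replicate 3 alone correlated best with the WT pig of its own number.

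With each pig left out in turn, 678 (without UCP1 KI replicate 2) to 1541 (without WT replicate 3) of all genes and 1 to 5 of the 10 genes were called, the median of the 10 ran from 0.36 to 0.90, and 2 to 5 of them separated the groups, where 21.1% to 32.8% of all genes did. Calls ran from 1 to 4 among the regulators of FoxO, 0 to 1 among the other ligases, 0 to 2 among the atrophy signals and the sarcomere genes, 0 to 3 among the denervation markers and 1 to 2 among the GADD45 relatives. Among the genes named by the rules above and *DDIT4*, log2 fold changes that changed sign ran from -0.45 to 0.021 for *TRIM54*, -0.37 to 0.0094 for *PDK4*, -0.088 to 0.35 for *CSF1R*, -0.19 to 0.21 for *PECAM1* and -0.41 to 1.11 for *DDIT4*, none of which was called with all pigs. Other listed genes also changed sign, such as *ULK1*, at 0.02 with all pigs and -0.72 without UCP1 KI replicate 3.

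Counts limit these results little, since the lowest count of the 10 genes was 170, and 3 pigs a group cannot reach an exact p under 0.1.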

Other observations

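*DDIT4* and *SESN1* were high in UCP1 KI replicate 3, and their groups overlapped. *DDIT4*, for an inhibitor of mTORC1 signalling, was at 38.6, 29.6 and 161 CPM in UCP1 KI pigs and 36.8, 59.9 and 39.4 CPM in WT pigs, so that this pig was at 4.72 times the other UCP1 KI pigs, a ratio that 23 of 11407 genes reached. *SESN1*, for a leucine sensor upstream of mTORC1, was at 21.7, 135 and 319 CPM against 20.8, 53.0 and 104 CPM, with UCP1 KI replicate 1 at the level of the lowest WT pig. EdgeR called neither gene with all pigs, and *SESN1* (1.42) passed both limits without UCP1 KI replicate 1 (1.94) and with the replicate block (1.02). Without UCP1 KI replicate 3, *SESN1* was at 0.41 (edgeR, unadjusted p = 0.647).

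The glucocorticoid receptor gene *NR3C1* had 143 counts in UCP1 KI replicate 1 and between 1130 and 1816 in the other 5 pigs. At 4.62 CPM against 31.7 to 50.1 CPM, this pig was the lowest by far. All UCP1 KI pigs were below all WT pigs, and the gene was not called (log2 fold change -0.86, standard error 0.64, edgeR unadjusted p = 0.215). Its log2 fold change was -0.37 without UCP1 KI replicate 1. These 3 genes were singled out after their values were seen.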
